A study of Rattus norvegicus with 4 samples.

Results

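The genes described here are 6 secreted synaptic organisers and 1 receptor: the C1q-like genes C1ql1, C1ql2 and C1ql3, the cerebellin genes Cbln1, Cbln2 and Cbln4, and the delta glutamate receptor gene Grid1. They were picked by symbol, and each symbol named 1 of the 32883 features, so that 7 of 32883 features are members. The choice of genes, and of the sets of nuclei in which they were read, was made from their levels in these nuclei, so the levels between sets are a description and carry no test. Tests are given for the listed binding partners, for differences between nuclei of 1 set and for sex, though these lists and divisions were also drawn up with results of these data in view.

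C1q-like proteins and cerebellins carry a C1q-type globular domain, assemble into multimers and are released into the synaptic cleft. Cerebellins bind presynaptic neurexins on 1 side of the cleft, and several of them bind delta receptors on the other. C1q-like proteins bind the adhesion receptor encoded by Adgrb3, with kainate receptors and neurexin among the partners of some of them. Delta receptors are related to ionotropic glutamate receptors in sequence but act at synapses largely as adhesion and signalling proteins.

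The ventral tegmental area (VTA), the midbrain region that holds the mesolimbic dopamine neurons, was dissected from experimentally naive adult Sprague-Dawley rats aged 90 to 120 days. Frozen tissue of 3 rats of 1 sex was pooled per library, its nuclei were stained with 7-AAD and sorted, and nuclear RNA was read by droplet 3′ sequencing. There were 2 female libraries (Female 1 and Female 2) and 2 male libraries (Male 1 and Male 2), with no treatment or genotype contrast. A dissected block holds neighbouring tissue as well, and nuclei leave out most cytoplasmic and synaptic RNA.

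The 4 libraries held 21606 barcodes and between 19714338 and 25824289 unique molecular identifiers (UMIs, counted transcripts) each, and 20620 nuclei were kept. A gate is a set of nuclei defined by raw UMIs of a few marker genes. The dopamine gate (at least 2 UMIs of both Th and Slc6a3) held 283 nuclei. The gate with Slc26a7 and Gad2 held 142, the GABA gate (at least 2 UMIs of Gad1) 1089, and the glutamate gate (at least 2 UMIs of Slc17a6 and none of Gad1) 207 nuclei with Th and 1284 without. The gate of oligodendrocyte precursors (Pdgfra) held 1542 nuclei, astrocytes (Gja1 and Aqp4) 1836 and oligodendrocytes (Mog and Mobp) 8468. Median depth was between 6280 and 10835 UMIs per nucleus in the 5 neuronal gates over the libraries, against 2435.5 to 3222 in precursors, 3075 to 3918.5 in astrocytes and 1926.5 to 2942.5 in oligodendrocytes. Pairs of libraries shared between 4 and 9 barcodes.

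Levels are given as counts per 1000000 UMIs summed over a gate in 1 library (CPM), with the mean ± SD over the 4 libraries; runs of 4 values list the libraries as Female 1, Female 2, Male 1, Male 2. In such sums fewer expressing nuclei and less RNA per nucleus cannot be told apart. Shares of nuclei with at least 1 UMI are therefore given beside them, after thinning to 2000 UMIs. Nuclei with fewer UMIs were left out here and wherever nuclei were thinned. This took out 3048 of 8468 oligodendrocytes, 430 of 1542 precursors and 310 of 1836 astrocytes, but at most 12 nuclei of each neuronal gate. The share in oligodendrocytes is given as a rough reference for free RNA, which was not tested. It is not the lowest share for each gene: Cbln1 was in 0.609% of oligodendrocytes and 0.164% of astrocytes after thinning. Single oligodendrocytes reached between 4 and 10 C1ql1 UMIs per library.

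The dopamine and precursor gates matched their labels on genes that did not define them. A list of 7 dopamine markers (Slc18a2, Ddc, Nr4a2 and others) summed to between 2717 and 3370 CPM in the dopamine gate. It summed to between 173 and 251 CPM in astrocytes and to between 15.5 and 20.8 in oligodendrocytes. The Slc26a7 and Gad2 gate also carried the dopamine list (969 to 1250 CPM) together with the GABA list (957 to 1363 CPM). The GABA list, which includes Gad2, was at 475 to 701 CPM in astrocytes. Glutamate nuclei with Th carried 409.6 to 431 CPM of the dopamine list against 109 to 141 in those without. Precursor markers (Cspg4, Vcan, Olig1, Olig2 and Sox10) reached 3721 to 4351 CPM in the precursor gate and 436 to 668 in oligodendrocytes. They were at 81.4 to 134 CPM in the Slc26a7 and Gad2 gate, 33.7 to 68.9 in glutamate nuclei with Th and 11.6 to 15.8 in dopamine nuclei.

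C1ql1 encodes a C1q-like protein best known from the climbing fibre synapses of the cerebellum, where its receptor is the product of Adgrb3. Its level was highest in precursors, at 1069.8, 903, 1014 and 1021 CPM. Glutamate nuclei with Th followed, at 282, 318, 284 and 234 CPM. Glutamate nuclei without Th stood at 93.5, 130.0, 72.8 and 105 CPM. These 3 gates did not overlap in any library, and the ratio of means was 3.58 between precursors and glutamate nuclei with Th, and 2.78 between glutamate nuclei with and without Th. Below them the dopamine gate (28.8 ± 12.9 CPM) and the GABA gate (22.4 ± 9.89 CPM) overlapped, and the Slc26a7 and Gad2 gate had 14.0 CPM from 16 UMIs. Astrocytes (5.95 CPM) and oligodendrocytes (5.40 CPM) were lowest, the latter 186 times below precursors.

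C1ql1 was found in most precursor nuclei. After thinning, 79.5% ± 2.00 of precursors had a C1ql1 UMI, against 34.7% ± 2.54 of glutamate nuclei with Th, 14.1% ± 4.30 of those without, 5.94% of dopamine nuclei and 2.61% of GABA nuclei. The oligodendrocyte share was 0.838%, and the unthinned shares were 87.5% in precursors, 58.8% and 26.2% in glutamate nuclei with and without Th, and 1.06% in oligodendrocytes. Glutamate nuclei were uneven: 41.2% of those with Th had no C1ql1 UMI in the full data and 21.7% had at least 5, and of those without Th 73.8% had none and 6.46% at least 5. Single GABA nuclei reached between 8 and 17 UMIs per library although 94.9% of the gate had none.

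C1ql2 encodes a C1q-like protein known from hippocampal mossy fibres, where it binds kainate receptors and neurexin. It too was highest in precursors, at 176, 110.2, 115 and 128 CPM. Glutamate nuclei without Th had 20.6, 18.6, 20.5 and 34.9 CPM, 5.60 times less on average and with no overlap. GABA nuclei had 10.8 ± 1.41 CPM, again without overlap with the gate above. C1ql2 therefore parted from C1ql1 in glutamate nuclei with Th, which gave 12.7, 0, 2.01 and 3.94 CPM from 11 UMIs in all and lay below the nuclei without Th in every library. The dopamine gate held 9 UMIs and the Slc26a7 and Gad2 gate 4. After thinning, 22.1% ± 3.88 of precursors and 3.35% of glutamate nuclei without Th had a C1ql2 UMI, against 0.683% of oligodendrocytes. The few glutamate nuclei with C1ql2 could hold much of it: the highest nucleus of a library had between 5 and 16 UMIs in the gate without Th and 4 or 5 among precursors.

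C1ql3, the third C1q-like gene, was low everywhere. Precursors had 23.4, 25.0, 16.7 and 22.1 CPM, and the Slc26a7 and Gad2 gate had 17.7, 15.1, 28.4 and 5.94 CPM from 19 UMIs, so the leading gates overlapped. Glutamate nuclei without Th had 5.32, 5.81, 14.3 and 12.2 CPM, with both male libraries above both female ones. The dopamine gate held 4 C1ql3 UMIs in all. The thinned share was 4.39% ± 0.370 in precursors, 2.68% in the Slc26a7 and Gad2 gate and 0.382% in oligodendrocytes.

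Cbln1 encodes a cerebellin best known from the granule cell synapses of the cerebellum. Here it was highest in glutamate nuclei. Those with Th had 60.1, 73.4, 141 and 51.2 CPM, and those without Th had 35.8, 20.9, 40.4 and 43.1 CPM. The lowest library with Th lay above the highest without, and the ratio of means was 2.32. The Slc26a7 and Gad2 gate (22.4 CPM, 26 UMIs) overlapped the glutamate nuclei without Th. Dopamine nuclei (6.26 CPM, 18 UMIs) were 13.0 times below glutamate nuclei with Th, and precursors had 2.93 CPM. The thinned share was 15.3% ± 6.71 in glutamate nuclei with Th, 6.65% in those without and 0.609% in oligodendrocytes.

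Cbln2, another cerebellin that binds neurexins and delta receptors, was shared by the Slc26a7 and Gad2 gate and both glutamate gates. The former had 35.4, 15.1, 56.8 and 50.5 CPM from 46 UMIs. Glutamate nuclei without Th had 37.6, 31.4, 36.1 and 40.4 CPM, and those with Th 23.7, 15.3, 40.3 and 19.7 CPM. The 3 gates overlapped, so no order among them was set. GABA nuclei (7.43 CPM) were below all of them in range, and dopamine nuclei (2.09 CPM, 6 UMIs) below GABA nuclei. After thinning, 6.73% of glutamate nuclei without Th had Cbln2 and 0.528% of dopamine nuclei did, against 0.117% of oligodendrocytes.

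Cbln4 encodes a cerebellin that binds netrin receptors. It was the only member with its highest mean in dopamine nuclei, at 28.1, 28.9, 33.0 and 36.6 CPM from 91 UMIs. Glutamate nuclei with Th had 34.8, 24.5, 6.04 and 21.6 CPM and overlapped them, as did the Slc26a7 and Gad2 gate (21.7 CPM, 27 UMIs). Glutamate nuclei without Th (17.9 CPM) and GABA nuclei (15.7 CPM) lay below every dopamine library. Glia had almost none: 1.32 CPM in oligodendrocytes, 1.29 in precursors and 0.506 in astrocytes. The thinned share was 7.24% ± 0.683 in dopamine nuclei (24.2% unthinned), between 3.08% and 4.31% in the other neuronal gates, and 0.235% in oligodendrocytes. With at least 2 UMIs asked of every gate marker, glutamate nuclei with Th took the highest mean.

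Grid1 encodes the delta receptor GluD1, a postsynaptic partner of several cerebellins in many forebrain regions. It was the only member found at a similar order of level in all 8 gates. It was highest in precursors, at 544, 603, 564 and 581 CPM. The Slc26a7 and Gad2 gate followed at 478, 449.9, 450.01 and 366 CPM, without overlap. The remaining gates spread over less than a 2-fold range, from 345 ± 64.4 CPM in glutamate nuclei with Th and 309.7 ± 24.6 in those without, through astrocytes (291 ± 30.1) and GABA nuclei (258 ± 31.3), to oligodendrocytes (202 ± 13.1) and dopamine nuclei (200.1 ± 28.3). Dopamine nuclei were thus 2.86 times below precursors and overlapped oligodendrocytes. The thinned share ran from 64.2% ± 1.56 in precursors and 49.6% in the Slc26a7 and Gad2 gate down to 29.8% in dopamine nuclei and 27.5% in oligodendrocytes. The oligodendrocyte share is thus no free-RNA floor for Grid1. Nuclei in no gate with at least 2 UMIs of Csf1r, a microglial marker (879 nuclei), had 6.92 CPM of Grid1 from 9 UMIs.

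**Figure D1:**
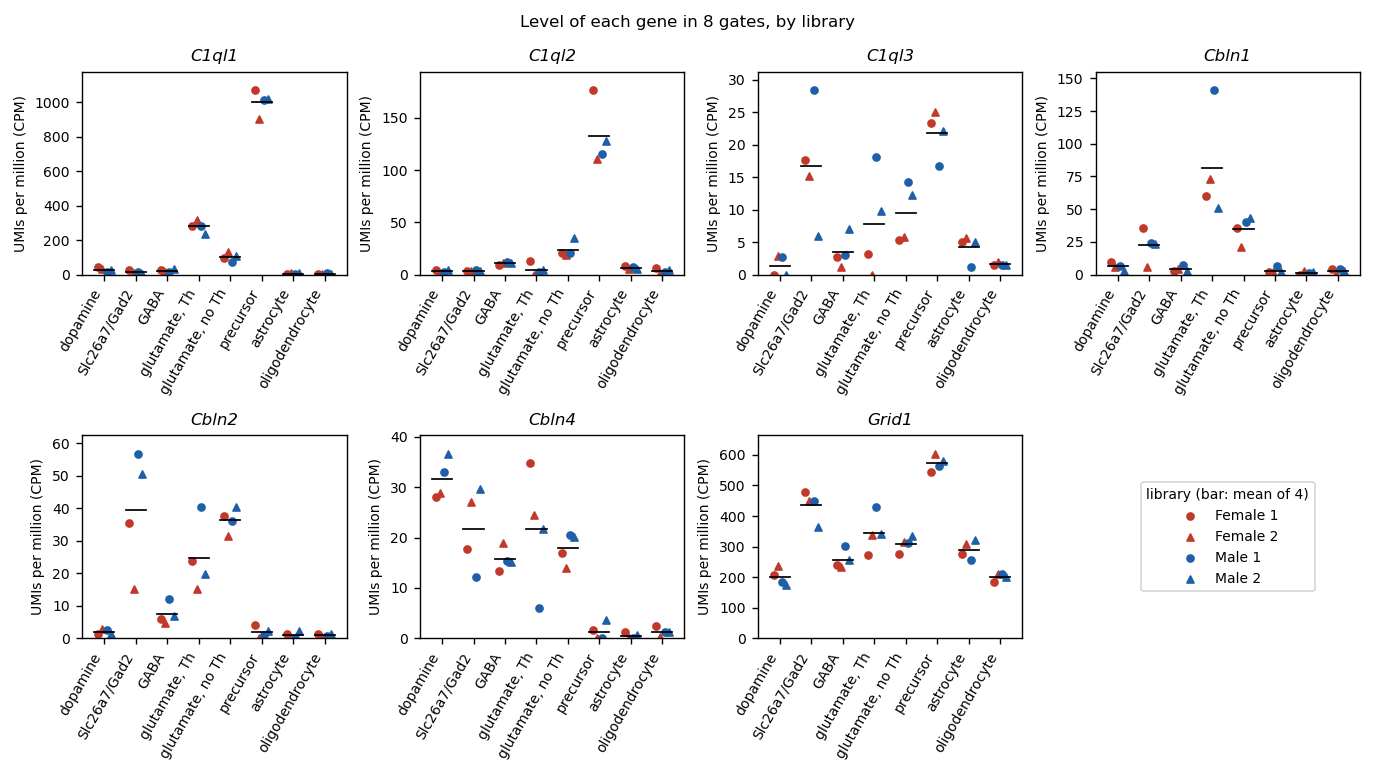
Level of each gene in CPM (y axis, linear, from 0) in 8 gates of nuclei (x axis). Points are the 4 libraries and horizontal bars their mean; C1ql1 falls from 1002 CPM in precursors to 5.40 in oligodendrocytes, while Grid1 stays between 200.1 and 573.

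**Figure D2:**
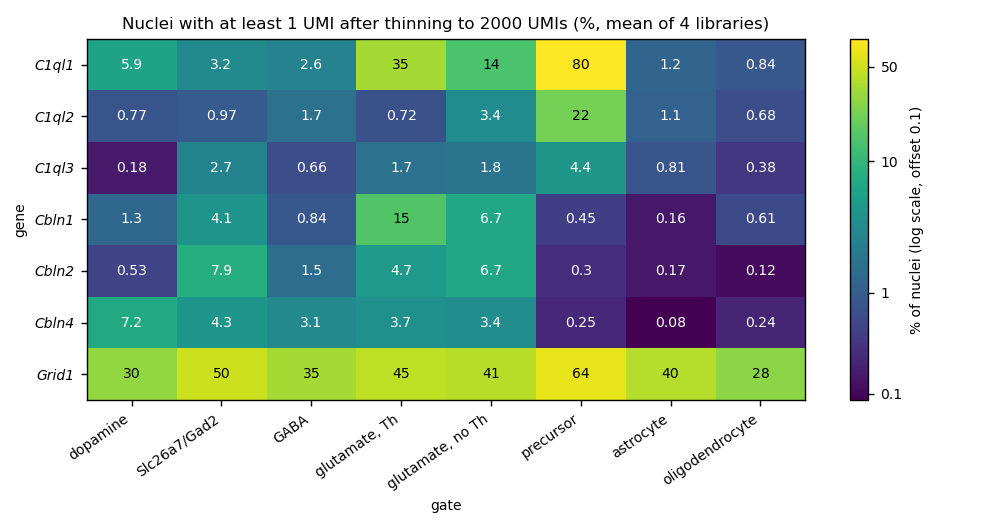
Percent of nuclei with at least 1 UMI of each gene (rows) in each gate (columns) after thinning to 2000 UMIs. Values are means of 4 libraries with a logarithmic colour scale, and nuclei with fewer than 2000 UMIs were left out. C1ql1 reaches 79.5% in precursors and 34.7% in glutamate nuclei with Th, and Cbln4 peaks at 7.24% in dopamine nuclei.

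Finer groups were read after the values were seen and are given without a test. For these groups a transcription factor gene or Enpp6 counted as present in a nucleus with at least 2 UMIs. Among glutamate nuclei, those with the transcription factor gene Ebf3 had 198 ± 21.5 CPM of C1ql1 and 73.7 ± 17.4 of Cbln1 (399 nuclei). The 39 glutamate nuclei with Tcf7l2, a thalamic and habenular factor, had 118 ± 50.3 CPM of Cbln2, between 59.8 and 183, and 17.8 CPM of C1ql1 from 5 UMIs. The GABA gate was as uneven for its C1ql1: 43 nuclei with Pax5 had 199.5 ± 41.2 CPM, and 127 nuclei with Pax7 had 0.559 CPM from 1 UMI. Cbln4 among GABA nuclei was 43.8 ± 17.6 CPM in 55 nuclei with Sox14 and 27.8 ± 6.97 in 112 with Gata3, both factors of midbrain GABA neurons, but 3.52 CPM in 395 nuclei with Meis2 and 1.30 in those with Pax7 (11 and 2 UMIs). Glutamate nuclei with Th but no Slc6a3 UMI (194 nuclei) had 286 ± 44.0 CPM of C1ql1, as high as the gate as a whole. Of all kept nuclei, 1380 had Enpp6, a marker of newly forming oligodendrocytes, and no Pdgfra UMI. No oligodendrocyte marker was asked of them, and nuclei of other gates were not taken out. The 1380 nuclei had 30.0 ± 9.44 CPM of C1ql1 and 389.6 ± 29.1 of Grid1, against 1018 and 568 CPM in precursors with no Enpp6 UMI. The 20 precursors with at least 2 Enpp6 UMIs lay between for C1ql1, at 460.3 CPM, and had 748 CPM of Grid1.

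The members were also found together in single nuclei more or less often. Among precursors C1ql2 was detected in 33.2% of nuclei with a C1ql1 UMI and in 18.3% of those without, and the first share was higher in 4 of 4 libraries. Among glutamate nuclei Cbln1 was detected in 33.0% of nuclei with C1ql1 and 16.6% of those without (4 of 4 libraries higher). Cbln2 and C1ql3 went the other way, at 15.0% against 22.7% and 1.82% against 7.51%, with 0 of 4 libraries higher. These shares of unthinned nuclei rise with depth, and they carry no test.

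The partner genes were 28 listed ligands, receptors and scaffolds, of which 26 were in the files and 24 had enough counts to test. Of the related genes outside the members, Cbln3 had 2 UMIs and C1ql4 had 0 over the gates. Gates were compared with edgeR's quasi-likelihood test on UMI sums, with the library as a block and Benjamini-Hochberg adjustment over 12245 genes (adjusted p under 0.05), and a log2 value here is always a difference between gates.

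Of the 5 listed genes of kainate receptor subunits, Grik3 was higher and Grik1 and Grik2 were lower in dopamine nuclei in all 3 comparisons with other neurons. Grik4 and Grik5 were called in none of the 3, with log2 differences between -0.34 and 0.35. Grik3 was at 412 ± 70.0 CPM, against 107 ± 11.9 in GABA nuclei, 74.6 ± 5.92 in glutamate nuclei without Th and 21.4 ± 12.2 in the Slc26a7 and Gad2 gate, which made log2 differences of 2.02, 2.51 and 4.38 (edgeR adjusted p 5.62e-16, 1.09e-18 and 1.53e-15). Grik2 was lower in dopamine nuclei, at 787 ± 89.0 CPM against 3164 ± 262 in GABA nuclei (log2 -1.94). Grik1 was lower as well, at 76.1 ± 25.4 CPM against 652 ± 233 in the Slc26a7 and Gad2 gate (log2 -3.02, edgeR adjusted p 1.91e-12). Among neurexins, the presynaptic receptors of cerebellins, Nrxn3 was higher in dopamine nuclei (14290.4 ± 975 CPM) than in GABA nuclei (9799 ± 194, log2 0.62) and far higher than in glutamate nuclei without Th (2833 ± 305, log2 2.40, edgeR adjusted p 3.35e-15). The netrin receptor gene Dcc, whose product binds Cbln4, was at 1956 CPM in dopamine nuclei and 1013 in glutamate nuclei without Th (log2 1.01, edgeR adjusted p 3.61e-10). The calls on Grik1, Grik2, Grik3 and Nrxn3 named here held in all 13 alternative analyses.

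By count, the partner list was called more often than genes at large in the comparisons of dopamine nuclei. Against GABA nuclei 18 of 24 were called, 5 higher and 13 lower, where 29.2% of all genes were called, and the list's median log2 difference was -0.67 against -0.02 over all genes. Against glutamate nuclei without Th 5 were higher and 11 lower (24.1% of all genes, medians -0.39 and -0.02). The lower genes included the trans-synaptic partners Lrrtm3 and Lrrtm4 and the pentraxin genes Nptx1, Nptx2 and Nptxr, whose products cluster AMPA receptors. The pentraxin calls were lost after thinning in both comparisons (adjusted p up to 1 against GABA nuclei and 0.574 against glutamate nuclei), that of Nptxr against GABA nuclei also without Female 1, and that of Nptx2 against glutamate nuclei also without Female 1 or Male 1. Lrrtm2 was among the higher genes in both (log2 0.75 and 0.52), and these calls too were lost after thinning, the second also without Female 1 or Male 2, with adjusted p up to 0.421 and 0.733. Against the Slc26a7 and Gad2 gate 4 were higher and 7 lower (15.3%). Between GABA nuclei and glutamate nuclei without Th 5 were higher in GABA nuclei and 2 lower (12.0%), 4 in all without Male 2, and Nrxn3 led with log2 1.78 (edgeR adjusted p 3.35e-11). The glutamate nuclei with and without Th, which C1ql1 and Cbln1 parted, differed in 1 of 24 partners (2.04% of all genes): Adgrb3, the C1q-like receptor, was at 2094 ± 229 CPM with Th and 3086 ± 104 without (log2 -0.60, edgeR adjusted p 0.00157).

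Precursors, which held the most C1ql1, C1ql2 and Grid1, also had higher levels of most partner genes than oligodendrocytes. Against oligodendrocytes 21 of 24 partners were higher and 2 lower, where 66.2% of all genes were called, with a median log2 difference of 3.19 against -0.05 over all genes. Nrxn2 was at 595 CPM against 43.2 (log2 3.51), Lrrtm4 at 5213 against 75.6 (5.88) and Dcc at 1149 against 13.4 (6.16, edgeR adjusted p 7.66e-33). Neo1, the other netrin receptor gene, was lower in precursors (309 against 532 CPM, log2 -1.05), as was Grik4 (-0.82). Summed neuronal markers in the precursor gate were between 921 and 1399 CPM, and their part in the result was not tested. Astrocytes differed from oligodendrocytes in 9 partners that were higher and 8 that were lower (67.1% of all genes), among them Nptx2 (log2 -5.30), with a median of 0.02.

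**Figure D3:**
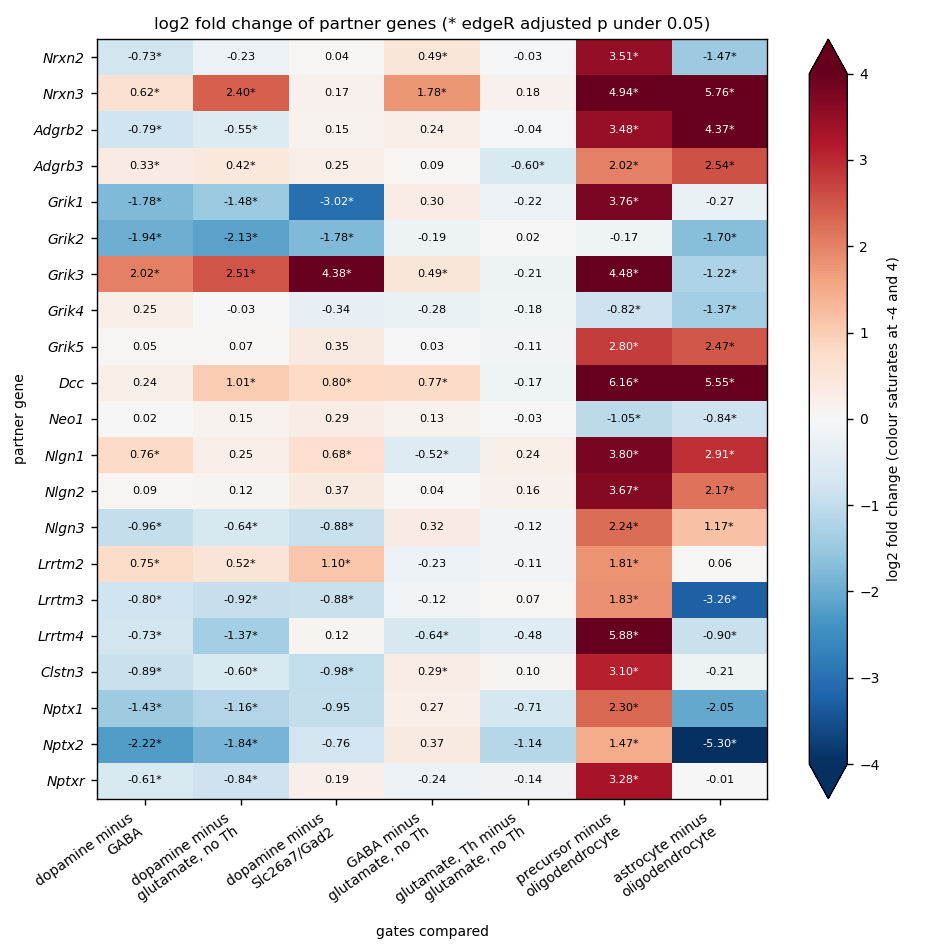
log2 difference of 21 of the partner genes (rows) for 7 pairs of gates (columns), with an asterisk for an edgeR adjusted p under 0.05 and colour saturating at -4 and 4. Grik2 is lower and Grik3 higher in dopamine nuclei in all 3 comparisons, and most partners are higher in precursors than in oligodendrocytes.

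Nuclei of 1 gate were then divided by a member's own UMIs, at least 2 against 0, summed per library and compared with edgeR with the library as a block. In the whole glutamate gate the nuclei with C1ql1 numbered 85, 70, 69 and 83, and those without 264, 135, 303 and 350. Cbln1 was higher in the nuclei with C1ql1, at 101, 38.9, 94.6 and 61.0 CPM against 19.5, 22.3, 37.0 and 36.8. It was higher in every library and the sides did not overlap (log2 1.36 ± 0.20 SE, edgeR adjusted p 3.98e-05). Cbln2 was lower, at 19.9, 19.5, 31.5 and 26.4 CPM against 40.3, 37.5, 38.0 and 42.4, again without overlap (log2 -0.70 ± 0.19, edgeR adjusted p 0.0212). The remaining tested members were not called: Grid1 had a log2 difference of -0.08, Cbln4 of -0.43 and C1ql2 of 0.38, the last with 55.5 CPM in Male 2 against 14.6 to 17.8 in the other libraries. Of all genes 7.68% were called. The Cbln1 call held in the 12 alternatives in which it could be tested, and the Cbln2 call was lost in 5 of 12, among them without Female 1 and without Male 2, with edgeR or DESeq2 adjusted p up to 0.306.

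The 2 sides differed in Th as well. Of the nuclei with C1ql1 between 22.9% and 37.6% had a Th UMI, and of those without between 6.57% and 11.1%. Dopamine markers summed to 235 to 335 CPM with C1ql1 and 115 to 164 without, and precursor markers to 26.0 to 69.4 and 27.1 to 47.6. The granule cell list (Gabra6, Cbln3 and Calb2) was at 119 to 161 CPM with C1ql1 and 57.8 to 69.5 without, higher in 4 of 4 libraries. With C1ql1, 2 of its 3 genes were at 0, so the rise was that of 1 gene. The sum of GABA markers was higher in 4 of 4 libraries (101 to 168 against 97.3 to 130.02 CPM), though only 1 of the 3 genes was higher. General neuronal markers were lower in 4 of 4 (2918 to 3412 against 3633 to 4651), with 1 of 4 genes higher. The part of these lists in the results was not tested. Median depth per library was 7723 to 10039 UMIs with C1ql1 and 6861.5 to 9229 without. Among glutamate nuclei with no Th UMI at all, where 5.55% of genes were called, Cbln1 kept its difference, at 98.9, 37.3, 70.6 and 65.6 CPM with C1ql1 against 21.0, 10.8, 30.5 and 35.7 without (log2 1.44 ± 0.21, edgeR adjusted p 0.00011), and this held in 12 of 12 alternatives. Cbln2 was not called there (log2 -0.43, adjusted p 0.325). Leaving out the nuclei with Th did not level the marker lists: dopamine markers were at 156 to 233 CPM with C1ql1 and 94.4 to 133 without, and the granule cell list at 129 to 147 and 56.7 to 65.9, both higher in 4 of 4 libraries without overlap. By gene, 5 of 7 dopamine markers and 1 of 3 granule cell genes were higher, and 2 granule cell genes were at 0 with C1ql1.

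**Figure D4:**
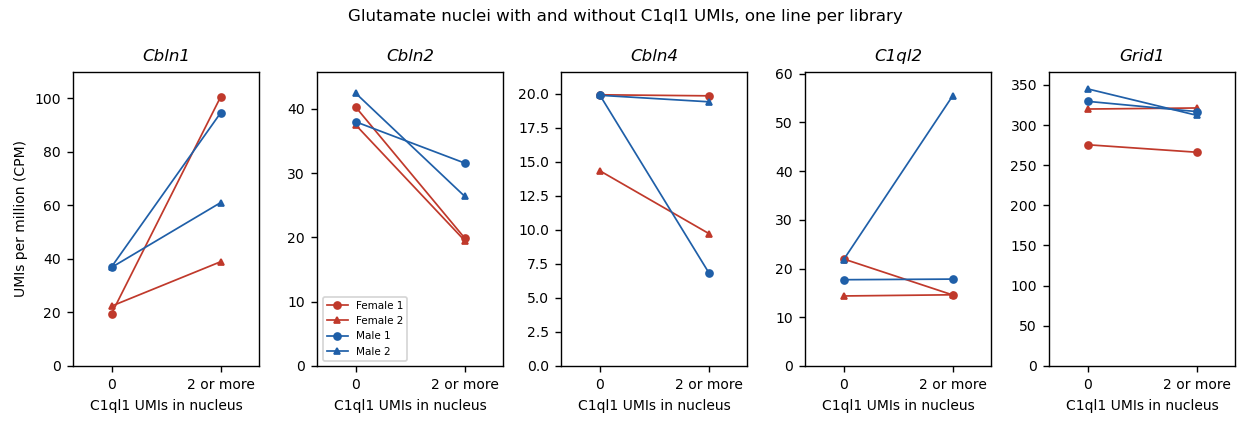
Level of 5 members in CPM (y axis, linear, from 0) in glutamate nuclei with 0 or with at least 2 C1ql1 UMIs (x axis), with a line per library. Cbln1 rises in all 4 libraries (38.9 to 101 CPM with C1ql1), Cbln2 falls in all 4, and Grid1 runs nearly level.

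Glutamate nuclei with C1ql1 also differed in their transcription factors and peptides, where 7.68% of all genes were called. Of 11 regional transcription factors tested, 6 were higher with C1ql1: Foxa2 (log2 1.66), Nr4a2 (1.55), Pax5 (1.53), Ebf2 (1.17), Ebf3 (1.08) and Lmx1a (0.93), several of them factors of the midbrain floor plate and its dopamine lineage. Sim1 (-1.45) and Zfhx3 (-1.36) were among those that were lower. Foxa2 was lost without Female 1, and Pax5 without Female 1 and without Male 1, with adjusted p of at most 0.0603 and 0.128. Of 11 transmitter and peptide genes, 4 were higher (among them Ddc 1.22, Sst 0.93 and Tac1 0.88) and 4 lower (Nts -2.82, Penk -2.26, Cartpt -1.55 and Cck -0.54). Sst was lost without Female 1, without Male 1 and without Male 2, and Cck without Female 1, with adjusted p up to 0.879 and 0.141 over all alternatives. Beyond the lists, the leading increases were Postn (log2 3.49), Gulp1 (2.63, 335 against 52.9 CPM), Bnc2 (2.59), Wnt5a (2.28) and Pdzrn3 (2.18), and the leading decreases Npsr1 (-4.41), Unc5b (-3.75) and Hmcn1 (-3.60). Of 22 partners 2 were higher, Grik1 (0.61) and Lrrtm2 (0.66), and 4 lower, among them Adgrb3 (-0.63), Lrrtm4 (-0.49) and Nrxn3 (-0.35). The number of partners called was 3 with DESeq2, 3 after thinning and 2 with the division at 1 UMI. The same 6 partners were called in the same directions in nuclei with no Th UMI. In the whole gate Lrrtm2 and Nrxn3 were lost without Female 2, and Nrxn3 also without Male 2, with adjusted p up to 0.158 and 0.188.

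Divided by Cbln1 instead, with 33, 15, 52 and 37 nuclei on the side with Cbln1, the glutamate gate gave the same pairing from the other end. C1ql1 was at 454, 253, 289 and 195 CPM with Cbln1 and at 86.2, 132, 56.2 and 102 without, with no overlap (log2 1.76 ± 0.18, edgeR adjusted p 3.07e-07), and it held in 13 of 13 alternatives, while 3.88% of all genes were called. Both divisions use the same nuclei and are not independent of each other. Of the nuclei with Cbln1 between 18.9% and 40.0% had a Th UMI, and of those without between 7.74% and 13.8%. Dopamine markers summed to 298 to 404 CPM with Cbln1 and 120.2 to 157 without, with 7 of 7 genes higher, and GABA markers to 187 to 260.1 and 88.4 to 121. The granule cell list was at 111 to 153 and 69.1 to 88.0 CPM and precursor markers at 29.7 to 144 and 28.6 to 49.2. The sums of these 4 lists were higher with Cbln1 in 4 of 4 libraries. By gene, 3 of 3 GABA markers were higher, but only 2 of 5 precursor markers (2 at 0) and 1 of 3 granule cell genes (2 at 0). General neuronal markers were lower in 4 of 4 libraries, and the part of these lists in the results was not tested. Cbln2, Cbln4, C1ql2 and Grid1 were not called. Ebf3 rose (1.40) and Zfhx3 (-1.96) and Sim1 (-1.82) fell, and the vesicular GABA transporter gene Slc32a1 was higher with Cbln1, at 54.4 against 6.15 CPM (log2 3.00, edgeR adjusted p 1.06e-06). Other leading increases were Prom1 (4.34), Crhbp (3.81), Col6a2 (3.30) and Ces1d (2.84), and Npsr1 (-5.63) and Myo1e (-3.07) led the decreases.

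Divided by Cbln2, with 26, 15, 34 and 33 nuclei, the glutamate gate differed in fewer genes (0.859%). C1ql1 was lower with Cbln2, at 63.0, 116, 59.3 and 96.5 CPM against 142, 165, 105 and 128, lower in all 4 libraries although the ranges overlapped (log2 -0.71 ± 0.17, edgeR adjusted p 0.0225). This call was lost in 5 of 13 alternatives, among them without Female 1 and without Male 1, with adjusted p up to 0.322. Dopamine markers were lower with Cbln2 in 4 of 4 libraries (73.5 to 169.6 against 170.5 to 198 CPM), as were precursor markers (5.85 to 25.8 against 31.8 to 58.7). The granule cell list was higher in 4 of 4 (93.6 to 133 against 70.4 to 91.9 CPM), with 2 of its 3 genes higher and 1 at 0 with Cbln2. Median depth was higher with Cbln2 in each library, at 9367 to 10719 UMIs against 6785 to 9720. The part of these in the result was not tested. Tcf7l2 (log2 2.53), Nts (2.63) and Sst (1.80) were higher with Cbln2, as were 4 of 22 partners, Nrxn3 (0.66), Grik1 (0.71), Lrrtm4 (0.39) and Adgrb3 (0.39).

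Grid1, as the widespread receptor, divided the glutamate, GABA, precursor and dopamine gates. In these divisions depth moved with Grid1: in glutamate nuclei the median was between 8060 and 11269 UMIs with Grid1 and between 4995 and 6440 without. Gene length moved with it too, with a median log2 difference of 0.21 over 453 genes of at least 300 kb and -0.26 over 1467 genes of at most 10 kb. Their part in the results was not tested. In glutamate nuclei C1ql2 was the 1 member called, at 16.3, 14.3, 16.9 and 25.7 CPM with Grid1 against 32.4, 23.4, 40.4 and 55.2 without (log2 -1.03 ± 0.22, edgeR adjusted p 0.00906, with 3.87% of all genes called). It was lower in 4 of 4 libraries, and the call was lost without Male 1 and without Male 2, with adjusted p up to 0.0947. Glutamate markers were lower with Grid1 in 4 of 4 libraries (356 to 399.5 against 452 to 514 CPM), as were oligodendrocyte markers (216 to 279 against 266 to 343), and their part in the results was not tested. Stk32a (log2 1.88) led the increases. Of 22 partners 6 were higher and Adgrb2 lower, with 4 called without Female 1, without Female 2 or without Male 1.

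In GABA nuclei neither tested member was called by Grid1 (6.52% of all genes), and 5 of 22 partners were called, each higher, among them Nlgn1 (0.71), Grik4 (0.48), Grik1 (0.42) and Lrrtm4 (0.36). Without Female 1, Male 1 or Male 2 in turn, 3, 3 and 2 of the partners were called. Pax5 (log2 2.13) was higher in GABA nuclei with Grid1, and Tac1 (-2.09) was lower. Of 14 regional transcription factors 2 were higher, Pax5 and Zfhx3, and 4 lower (among them Pax3 -0.89, Ebf2 -0.88 and Pax7 -0.78). Of 9 transmitter and peptide genes 0 were higher and 5 lower, among them Nts (-0.85), Penk (-0.67) and Slc32a1 (-0.64). The calls on Pax5, Tac1 and Slc32a1 held whichever library was left out. That on Pax7 was lost without Female 1, Male 1 or Male 2, that on Nts without Female 2, Male 1 or Male 2, that on Penk without Female 1 or Male 2, that on Pax3 without Male 1, and those on Ebf2 and Zfhx3 without Male 2, with adjusted p up to 0.8287 over all alternatives. The GABA markers of the gate were themselves lower with Grid1 in 4 of 4 libraries, at 812 to 1025 CPM against 1154 to 1317. Astrocyte markers (19.8 to 26.4 against 27.2 to 35.7 CPM) and oligodendrocyte markers (197 to 315 against 238 to 501) were lower in 4 of 4 as well. Median depth was 7564.5 to 10127 UMIs with Grid1 and 4711 to 6666 without, and the part of these in the results was not tested. In precursors C1ql1 was lower with Grid1, at 890.3, 871, 809 and 909.9 CPM against 1302, 1048, 1216 and 1234, without overlap (log2 -0.41 ± 0.08, edgeR adjusted p 0.000889, with 5.82% of all genes called). After thinning the edgeR adjusted p was 0.157. Median depth of these precursors was 3174 to 3923.5 UMIs with Grid1 and 1840 to 2466.5 without. The median log2 difference was 0.24 over 386 genes of at least 300 kb and -0.42 over 747 genes of at most 10 kb. The part of depth and gene length in the result was not tested. Microglial markers were between 4.27 and 22.2 CPM with Grid1 and between 23.0 and 385 without, astrocyte markers were between 381 and 446 and between 403 and 740.4, both lower with Grid1 in 4 of 4 libraries, and their part in the result was not tested. Enpp6 was higher in precursors with Grid1 (log2 2.36, adjusted p 0.0961 after thinning), and 8 of 23 partners were called, each higher. In dopamine nuclei divided by Grid1, 0.0742% of 5393 genes were called, and no other member had enough counts to test. This division was small, with 33, 35, 32 and 29 nuclei with Grid1 and 20, 21, 19 and 29 without. In glutamate nuclei 9721 genes were tested, with 219, 145, 246 and 265 nuclei and 82, 37, 69 and 99. The part of these sizes in the few calls was not tested. Cpne4 (1.29) and Nebl (1.39) were higher with Grid1 and Tuba1a (-0.77) and Tubb2a (-0.87) lower. Each of these 4 was lost without Male 2, Nebl and Tubb2a also without Female 2, Cpne4 and Tubb2a without Female 1, and Tuba1a whichever library was left out, with adjusted p up to 0.492.

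Precursors were last divided by the C1q-like genes. The 50, 33, 38 and 76 precursor-gate nuclei with no C1ql1 held 1323 to 2566 CPM of precursor markers and 67.4 to 523 CPM of microglial markers, against 3965 to 4697 and 3.26 to 21.0 CPM in those with C1ql1, so this side was less purely precursor. C1ql2 (log2 0.90, edgeR adjusted p 0.0385) and Grid1 (0.52, 0.0465) were higher with C1ql1, where 10.6% of genes were called, and both were lost without Female 1, without Male 1 and without Male 2, with adjusted p up to 0.989 and 0.976 over all alternatives. C1ql2 was at 176, 109, 133 and 138 CPM with C1ql1 and at 107, 124, 27.9 and 66.6 without (46 UMIs), so that Female 2 went the other way, and its log2 difference turned to -0.13 with 2 UMIs per gate marker. Limch1 (log2 -5.81) and Bmp6 (-6.84) led the genes lower with C1ql1. Divided by C1ql2, with 48, 19, 18 and 34 nuclei on the side with it, precursors differed in 0.449% of genes and in no member or partner by edgeR.

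Sex was tested within each gate as female minus male, with 2 libraries of each. Of 33 pairs of a member and a gate with enough counts, 0 were called by edgeR (lowest adjusted p 0.555), 4 had an unadjusted p under 0.05, and DESeq2 called 0. Of all genes 0.0682% were called in dopamine nuclei, 0.0481% in the Slc26a7 and Gad2 gate, 0.0944% in GABA nuclei, 0.0885% and 0.0573% in glutamate nuclei with and without Th, 0.109% in precursors, 0.0981% in astrocytes and 0.0514% in oligodendrocytes. The smallest p belonged to C1ql3 in glutamate nuclei without Th, at 5.56 CPM in females and 13.3 in males (log2 -1.26 ± 0.33, unadjusted p 0.0043, edgeR adjusted p 0.9997). C1ql1 in dopamine nuclei was at 38.4 CPM in females and 19.2 in males (log2 1.00 ± 0.37) and was not called either. In precursors the log2 differences were 0.01 ± 0.12 for C1ql1, 0.06 ± 0.12 for Grid1, 0.29 ± 0.20 for C1ql2 and 0.34 ± 0.32 for C1ql3, the last with female libraries above male ones without overlap, and none was called. Whether a difference between gates depended on sex was tested in the same way: 0 of 49 pairs of a member and a comparison of gates and 0 of 168 pairs of a partner and a comparison were called by edgeR, with 4 and 12 at an unadjusted p under 0.05 and 0 by DESeq2. Of all genes 0.114% were called for precursors against oligodendrocytes, 0.0898% for astrocytes against oligodendrocytes, 0.0163% for GABA nuclei against glutamate nuclei without Th, 0.00817% for dopamine against GABA nuclei and 0 in the other comparisons. Each library pools 3 rats, and 2 libraries a sex leave the wide errors shown here.

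**Figure D5:**
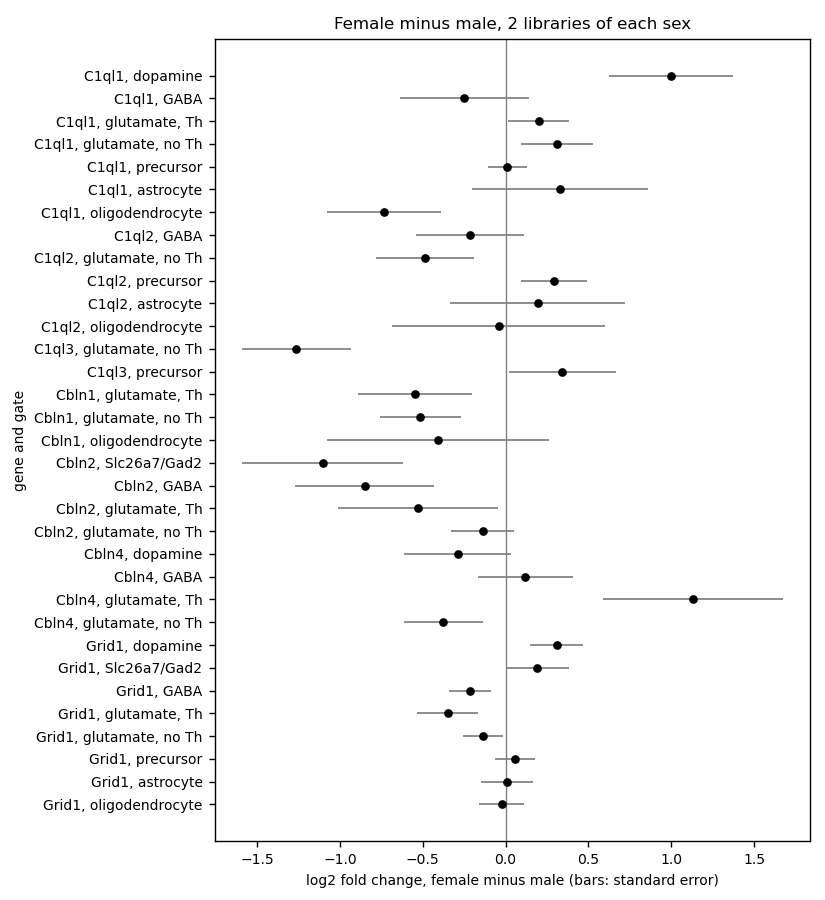
log2 difference, female minus male, for the 33 tested pairs of gene and gate (points, with standard errors as bars). The estimates run from -1.26 for C1ql3 in glutamate nuclei without Th to 1.13 for Cbln4 in glutamate nuclei with Th, and none was called.

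Other genes followed the same course over the 32 sums of 8 gates in 4 libraries, which share their libraries and, within a gate, their depth. By Pearson's r of log2(CPM + 1) over 9789 genes, C1ql1 was closest to Vxn (0.87), Hmcn1 (0.85) and Tnr (0.84), and C1ql2 to Fam198b (0.91), Shisal1 (0.86) and Eln (0.85). C1ql3 was closest to Diaph3 (0.81), Cep135 (0.75) and Rnf144b (0.72). Cbln1 was closest to the peptide gene Adcyap1 (0.86), Ano5 (0.85) and Nxph4 (0.85), Cbln2 to AC122968.1 (0.91), Rmnd1 (0.90) and Stxbp5l (0.88), and Cbln4 to Pgr, which encodes the progesterone receptor (0.95), Klhl1 (0.95) and Fam241b (0.94). Grid1 was closest to Sema3d (0.90), Sfmbt1 (0.86) and Megf11 (0.82). Hmcn1, close to C1ql1 across gates, was 1 of the genes most strongly lower in glutamate nuclei with C1ql1. Among the members themselves the highest values were those of C1ql3 with Grid1 (0.84) and Cbln1 with Cbln2 (0.83), the latter a pair that moved in opposite directions with C1ql1 inside the glutamate gate.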

How the data were processed

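Raw UMI counts per gene and nucleus were deposited as 4 sparse matrices, 1 per pooled library. The submitters' processing notes name Cell Ranger and the rn6 rat build, and per the file headers the matrices were written by software version 3.0.2; no other step is given in the sources used here. Nuclei with at least 200 genes and at most 5% mitochondrial UMIs were kept, and 980 barcodes with the highest Scrublet scores (scanpy 1.11.5; 0.8% per 1000 barcodes) were removed as doublets. Markers for which the rule gave no minimum were read as at least 1 UMI. Of the kept nuclei 14851 fell in 1 gate, 286 that met several were set aside and 5483 met none. UMIs were summed per library and gate and tested with edgeR 4.0.16 in R 4.3.3 (TMM, filterByExpr, quasi-likelihood test, Benjamini-Hochberg adjustment over all genes, threshold 0.05), after the procedure was tested on simulated data. The libraries are the replicates. With the library as a block, p-values in divisions weigh a difference within libraries against its variation from library to library. Between gates, the sums of all 8 gates were in 1 fit. Those p-values therefore use a spread estimated over all gates, glia included, and not from the compared gates alone. In the sex tests within a gate they measure the spread between pooled libraries of the same sex. Gates were divided by a member only with at least 20 nuclei on each side in each library. Divisions with at least 10, those of the precursor gate and that of glutamate nuclei without Th were added after seeing the data. Alternatives were DESeq2 1.42.0, no low-count filter, no TMM, overlapping gates, 2 UMIs per gate marker, doublets kept, at least 500 genes and at most 1% mitochondrial UMIs, nuclei thinned to 2000 UMIs, a division at 1 UMI, no library block, and each library left out. Named by rule were all members and called partners of the leading groups, the 3 most similar genes per member (at least 20 CPM in a gate), and per division the 5 largest increases and 3 largest decreases of at least 20 CPM with the same direction in 4 libraries; unnamed clones and divisions with few calls were shortened. A few listed genes enter the counts but are not reported here by name. Members and lists were chosen with earlier results of these data known. The labels do not say that replicate numbers pair the 2 sexes, so no pairing was used; same-numbered deviations correlated at -0.03 to 0.47 over the gates, above 0.1 in 4 of 8, and with 2 pairs these values cannot settle it. UMIs are counted molecules, and the depth per nucleus limits the detection shares. Figures were drawn with matplotlib 3.10.9.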

Additional observations from a re-analysis of the deposited data

Results flagged for a closer look

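In 4 of 56 combinations of gene and gate 1 library lay far from the other 3 (Dixon's test of the gap over the range); chance flags about 1 in 20. C1ql2 in glutamate nuclei without Th was at 34.9 CPM in Male 2 (114 UMIs) and between 18.6 and 20.6 in the others. The remaining 3 rested on few UMIs: C1ql3 in astrocytes was at 1.15 CPM in Male 1 (1 UMI; others 4.95 to 5.66), C1ql3 in oligodendrocytes at 1.91 in Female 2 (14 UMIs; others 1.47 to 1.49), and Cbln1 in precursors at 6.27 in Male 1 (6 UMIs; others 1.61 to 2.14).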

How the results depend on the processing

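Of the partner calls between gates 73 of 93 held in every alternative, and of the calls on named genes within gates 60 of 131. Partners called between GABA nuclei and glutamate nuclei without Th ranged from 4 to 7 with 1 library left out. After thinning, 9 were called between dopamine nuclei and glutamate nuclei without Th (16 otherwise), and Nptxr between dopamine and GABA nuclei moved from a log2 difference of -0.61 to 0.0031. Between glutamate nuclei with and without Th, 2 partners were called without the filter, 2 with overlapping gates, 2 after thinning and 3 with 2 UMIs per marker (1 otherwise). In GABA nuclei divided by Grid1 the partners called were 2 with DESeq2, 8 without the filter, 3 with doublets kept, 2 after thinning, 2 divided at 1 UMI and 2 to 5 with 1 library left out. In glutamate nuclei divided by C1ql1, the members called were 1 with DESeq2, 1 with overlapping gates, 1 with 2 UMIs per marker, 0 after thinning (where Cbln1 and Cbln2 had too few counts to test) and 1 to 2 with 1 library left out; the partners were 3 with DESeq2, 3 after thinning, 2 divided at 1 UMI and 3 to 6 with 1 library left out. In glutamate nuclei divided by Grid1, the members called were 0 with DESeq2 and with the stricter filter on nuclei, 2 without the low-count filter, without TMM, with overlapping gates and with 2 UMIs per marker, and 0 to 2 with 1 library left out; the partners were 4 with DESeq2, 4 after thinning and 4 to 7 with 1 library left out. C1ql2 in precursors divided by C1ql1 turned to -0.13 with 2 UMIs per marker. Levels in precursors were 872 CPM for C1ql1 and 528 for Grid1 with overlapping gates, and 1080.1 and 600.4 with 2 UMIs per marker; Cbln4 in dopamine nuclei was 47.0 CPM after thinning. Where not stated, the cause was not tested. With the replicate number as a block, 0 members were called by sex, as without it; pairing by number has no basis in the labels. C1ql1, C1ql2, C1ql3, Cbln1 and Grid1 kept their highest gate in 10 of 10 settings and Cbln4 in 9; for Cbln2 the Slc26a7 and Gad2 gate led in 7, glutamate nuclei without Th in 2 and those with Th in 1. Counts under about 20 UMIs per gate, mostly in the smallest neuronal gates, limit what the depth can show.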
